A study of Homo sapiens with 6 samples.

Results

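The genes examined are those of microRNA biogenesis and the Argonaute proteins: DICER1, TARBP2, PRKRA, DROSHA, DGCR8, XPO5 and AGO1 to AGO4. They were chosen by gene symbol, and each of the 10 was found with exactly 1 probe set among the 18376 genes tested. The data are 6 Affymetrix whole-transcript arrays of PC3, a line of aggressive, androgen-negative human prostate cancer. The microRNA miR-34c was expressed ectopically in 3 samples, and the other 3 received a scramble mimic as the control. The labels give neither the dose of the mimic nor the time of harvest, and they name miR-34c, as does the series title, whereas the series' design text has miR-205 in its place. Groups follow the sample labels.

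A microRNA is cut from a long primary transcript in the nucleus by the Microprocessor, in which DGCR8 binds the hairpin and the ribonuclease DROSHA cuts it. XPO5 (exportin-5) carries the hairpin to the cytoplasm, where DICER1, helped by the double-stranded RNA-binding proteins TARBP2 (TRBP) and PRKRA (PACT), cuts it to a duplex. An Argonaute protein keeps 1 strand and, with its partners, represses the messenger RNAs that the strand pairs with. A synthetic mimic is a ready duplex that is loaded into Argonaute without being cut by DROSHA or DICER1.

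The deposited values are log2 values from which a reference had been subtracted for each probe set, so only differences between arrays for 1 gene can be read, and levels of different genes cannot be compared. All 6 values of AGO1 and all 6 of TARBP2 lay below 0. Array medians over all probe sets lay between -0.030 and 0.062, and the highest belonged to scramble replicate 2. That array held the highest value of 8 of the 10 genes. Nothing in the labels tells separate cultures from repeat arrays of 1 culture, so the p-values speak only of the spread between these arrays, which may be technical. In bulk RNA, fewer cells that express a gene and less RNA per cell cannot be told apart. Whether the cells carry the markers of the labelled prostate line could not be read from centred values. None of 7 measured leukocyte markers passed the limma test of the difference between groups (0 at an unadjusted p under 0.05), while PDGFRA on the fibroblast list (log2 change -0.48) and PECAM1 on the endothelial list (-1.17) fell. These are 1 of 6 measured markers on each list. Of the labelled line's own kinds of marker, 2 of 6 epithelial genes (keratins and EPCAM) rose. KRT7 rose by 1.05 and KRT8 by 0.30 on the log2 scale (limma adjusted p = 0.000269 and 0.0377). Of the 6, 4 were higher at an unadjusted limma p under 0.05. The KRT8 call was lost under 6 of 15 other settings. On the prostate luminal list 1 of 5 measured genes passed, HOXB13, which fell by 0.28 (limma adjusted p = 0.0475). The HOXB13 call was lost under 11 of those 15 settings. For all of these markers, their part in the results below was not tested.

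DICER1 and TARBP2 were lower with miR-34c, and no gene of the set was higher. DICER1 stood at 0.697 of the scramble level and TARBP2 at 0.807. The other 8 genes did not pass the test, which was limma over all 18376 genes with a Benjamini-Hochberg adjusted p under 0.05. Of all genes tested, 8.01% passed as lower and 7.67% as higher. At an unadjusted limma p under 0.05, 4 genes of the set were lower and 0 higher, the 4 being DICER1, TARBP2, PRKRA and DGCR8, beside 16.2% of all genes tested as lower and 12.9% as higher at that threshold. All 10 log2 changes were below 0, with a median of -0.18, whereas the median over all genes was -0.034 and 57.7% of all genes lay below 0. In 5 of the 10 the 3 miR-34c arrays all lay below the 3 scramble arrays, beside 18.9% of all genes. The sign of the AGO4 change, -0.02, turned to 0.012 when the arrays were quantile-normalized again and to 0.055 with array weights. The number of genes of the set that passed was 4 when each array was centred on its median and also after repeated quantile normalization, with PRKRA and DGCR8 added, and 1 without miR-34c replicate 3 or without scramble replicate 3, DICER1 alone.

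**Figure D1:**
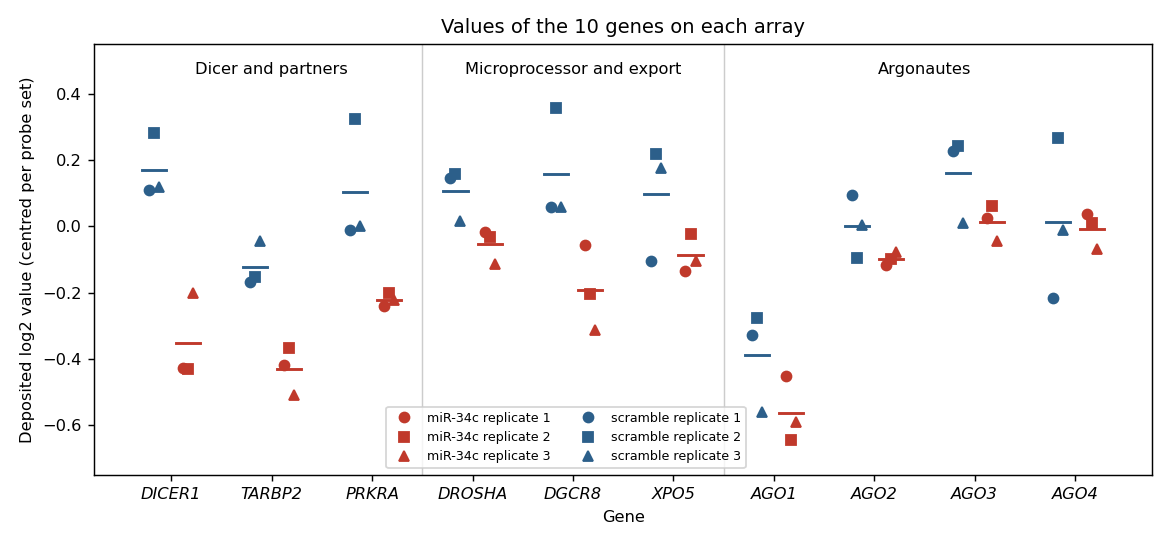
Deposited log2 values (centred for each probe set, vertical axis) of the 10 genes on the 3 miR-34c arrays (red) and the 3 scramble arrays (blue), with a symbol for each replicate number and a line at each group mean. The groups do not overlap for DICER1, TARBP2, PRKRA, DROSHA and DGCR8, and scramble replicate 2 (blue square) is the highest array for 8 of the 10 genes.

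DICER1, the ribonuclease that makes the mature duplex, had the largest change of the set. Its values were -0.43, -0.43 and -0.20 on the miR-34c arrays 1 to 3 and 0.11, 0.28 and 0.12 on the scramble arrays 1 to 3. All miR-34c arrays were below all scramble arrays, with a gap of 0.31 between the nearest pair, and miR-34c replicate 3 was the array of its group closest to the controls. The means were -0.35 ± 0.13 and 0.17 ± 0.097 (SD, n = 3 per group), a log2 change of -0.52 ± 0.091 (SE, 95% interval -0.72 to -0.32, limma adjusted p = 0.00457). Among the 1472 genes that passed as lower, DICER1 ranked 397th from the largest fall. In each of the 6 fits that left out 1 array DICER1 passed, with log2 changes between -0.60 and -0.47. It overlaps the antisense gene DICER1-AS1 in the RefSeq gene table. The log2 change of DICER1-AS1, -0.15, did not pass (limma adjusted p = 0.317), and whether the array keeps both strands apart was not tested.

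TARBP2 encodes the Dicer partner TRBP, which also binds and inhibits the kinase PKR. The miR-34c arrays held -0.42, -0.37 and -0.51, and the scramble arrays -0.17, -0.15 and -0.046. The groups were apart by 0.20, and both groups were tight, with SDs of 0.072 and 0.067. TARBP2 fell by 0.31 ± 0.076 on the log2 scale (SE, n = 3 per group, limma adjusted p = 0.0223). It ranked 1279th from the largest fall among the 1472 lower genes, so most genes that passed as lower fell further. The call was lost without miR-34c replicate 1 (-0.31, adjusted p = 0.0567), without miR-34c replicate 3 (-0.27, adjusted p = 0.106) or without scramble replicate 3 (-0.27, adjusted p = 0.0604). TARBP2 overlaps MAP3K12 in the RefSeq gene table, whose own log2 change, 0.19, did not pass (limma adjusted p = 0.246).

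PRKRA encodes PACT, the other double-stranded RNA-binding partner of Dicer and an activator of PKR. Its miR-34c values of -0.24, -0.20 and -0.22 were the closest together of the Dicer group. The scramble values were -0.013, 0.32 and -0.00063, so replicate 2 lay far above the other 2 controls. The log2 change of -0.32 ± 0.099 (SE) was about that of TARBP2, but with a limma adjusted p of 0.0521 PRKRA did not pass. Without scramble replicate 2 the change was -0.21 (adjusted p = 0.0738). With each array centred on its median it was -0.31 and passed (adjusted p = 0.0365).

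The promoter windows of DICER1 and TARBP2 are shown because both transcripts fell. RefSeq's promoter table (GRCh38.p14) gives 250 bases before to 50 after each annotated start, and 9 of the 10 genes were found in it, all but AGO2. The first window listed for DICER1 is chr14:95157480-95157779 on the minus strand, and that for TARBP2 is chr12:53500673-53500972 on the plus strand. Both are written in the direction of transcription, and capitals mark the letters CCAAT on either strand, which the transcription factor NF-Y is known to bind.
DICER1: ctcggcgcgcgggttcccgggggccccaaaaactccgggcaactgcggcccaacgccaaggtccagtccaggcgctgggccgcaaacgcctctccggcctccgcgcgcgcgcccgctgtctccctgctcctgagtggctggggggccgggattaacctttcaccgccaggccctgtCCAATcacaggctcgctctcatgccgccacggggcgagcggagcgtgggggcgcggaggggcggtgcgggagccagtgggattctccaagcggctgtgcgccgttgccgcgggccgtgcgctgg
TARBP2: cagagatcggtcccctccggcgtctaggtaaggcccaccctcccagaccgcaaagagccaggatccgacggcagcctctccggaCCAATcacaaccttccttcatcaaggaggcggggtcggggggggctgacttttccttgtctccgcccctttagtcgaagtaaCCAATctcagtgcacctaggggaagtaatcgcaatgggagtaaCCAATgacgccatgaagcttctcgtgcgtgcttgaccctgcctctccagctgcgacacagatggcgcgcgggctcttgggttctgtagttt
The DICER1 window holds 1 match and the TARBP2 window 3. PRKRA had 1, DROSHA 3, DGCR8 4 and AGO1 1 match in their first windows, while those of XPO5, AGO3 and AGO4 had 0. In all, 6 of 9 first windows held the motif, which was chosen after the values were seen, beside 36.3% of the first windows of 14209 tested genes. DICER1 has 5 windows in the table and TARBP2 has 3, and the motif was found in only some of them. Which start PC3 cells use was not measured, and a match of letters does not show binding.

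DROSHA and DGCR8, the core of the Microprocessor, and the exporter XPO5 did not pass. DGCR8 had the second largest change of the set in size. Its values were -0.058, -0.20 and -0.31 with miR-34c and 0.058, 0.36 and 0.058 with the scramble mimic. The groups were apart by 0.12, and both spread widely (SDs of 0.13 and 0.17). The log2 change was -0.35 ± 0.11 (SE, 95% interval -0.59 to -0.11, limma adjusted p = 0.0522). It was -0.25 without scramble replicate 2 (adjusted p = 0.113) and -0.42 without miR-34c replicate 1, where it passed (adjusted p = 0.0386).

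DROSHA values were -0.016, -0.033 and -0.11 on the miR-34c arrays and 0.15, 0.16 and 0.016 on the scramble arrays. The groups did not overlap, but scramble replicate 3 lay only 0.032 above the highest miR-34c array. The log2 change was -0.16 ± 0.080 (SE, 95% interval -0.34 to 0.017, limma adjusted p = 0.216). XPO5 was at -0.14, -0.022 and -0.10 with miR-34c and at -0.10, 0.22 and 0.18 with the scramble mimic. Scramble replicate 1 lay among the miR-34c arrays, and the log2 change of -0.18 ± 0.098 (SE, limma adjusted p = 0.253) did not pass. POLR1C, a subunit of RNA polymerases I and III that overlaps XPO5 in the RefSeq gene table, rose by 0.40 ± 0.10 (SE, limma adjusted p = 0.0237), the opposite direction.

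**Figure D2:**
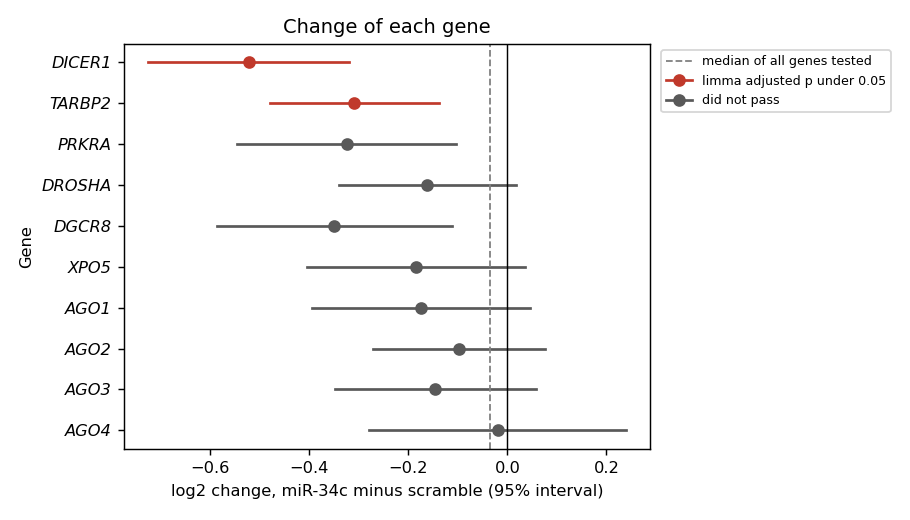
Log2 change (miR-34c minus scramble, horizontal axis) of each of the 10 genes with its 95% interval from limma, in red where the adjusted p was under 0.05. The intervals of DICER1, TARBP2, PRKRA and DGCR8 lie wholly below 0, and those of the other 6 genes reach from -0.40 (XPO5) to 0.24 (AGO4).

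None of the 4 Argonaute genes passed in limma, with 0 at an unadjusted p under 0.05, and the groups overlapped for each of them. Of all genes tested, 15.7% passed, and at the unadjusted threshold 16.2% were lower and 12.9% higher. The groups were apart as lower in 18.9% of all genes and as higher in 15.3%. With only 4 genes, these counts do not set the Argonautes apart from other genes. AGO2, the Argonaute that cuts fully paired targets, held -0.12, -0.10 and -0.077 with miR-34c. The scramble values were 0.093, -0.095 and 0.0037, so the second control lay among the miR-34c arrays. Its log2 change was -0.098 ± 0.078 (SE, 95% interval -0.27 to 0.076, limma adjusted p = 0.452). The lower bound of that interval allows a fall, so the result does not show that AGO2 was unchanged.

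AGO1, AGO3 and AGO4 lie side by side on chromosome 1 in the order AGO4, AGO1, AGO3, and act mainly by repression without cutting. AGO1 was at -0.45, -0.65 and -0.59 with miR-34c and at -0.33, -0.28 and -0.56 with the scramble mimic. Scramble replicate 3 lay among the miR-34c arrays (log2 change -0.17 ± 0.098, SE, limma adjusted p = 0.279). AGO3 was at 0.025, 0.061 and -0.044 with miR-34c and at 0.23, 0.24 and 0.0090 with the scramble mimic. Again scramble replicate 3 was the control that lay among the miR-34c arrays (log2 change -0.14 ± 0.091, SE, limma adjusted p = 0.332). AGO4 was at 0.037, 0.010 and -0.070 with miR-34c and at -0.22, 0.26 and -0.010 with the scramble mimic. Its scramble arrays spread more than those of any other gene of the set (SD 0.24), and the log2 change was -0.020 ± 0.12 (SE, limma adjusted p = 0.931).

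By the size of the change, the order was DICER1, DGCR8, PRKRA, TARBP2, XPO5, AGO1, DROSHA, AGO3, AGO2 and AGO4. The 95% interval of each gene held the estimate of the next in that order, and differences between the genes were not tested. The medians were -0.32 for DICER1 and its partners, -0.18 for the Microprocessor and export and -0.12 for the Argonautes.

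The genes most like DICER1 over the 6 arrays, by Pearson correlation, were SLC25A36, a mitochondrial pyrimidine nucleotide carrier (r = 0.999), PDIA5, a protein disulfide isomerase (0.998), and STIM1, the calcium sensor of the endoplasmic reticulum (0.998). For TARBP2 they were PTPRM, a receptor phosphatase (0.998), POLR3A, the largest subunit of RNA polymerase III (0.996), and ARHGAP32, a GTPase-activating protein (0.995). All were measured on the same 6 arrays, which carry the group difference, and 342 genes reached a correlation of 0.95 with DICER1 and 142 with TARBP2. PDIA5, STIM1 and ARHGAP32 fell, by 0.43, 0.31 and 0.29 on the log2 scale, and the other 3 did not pass. Within the set, PRKRA and DGCR8 correlated at 0.925 and DROSHA and AGO3 at 0.95, while AGO2 and AGO4 stood at -0.70.

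The proteins that work with these enzymes were examined through 9 lists of 109 genes, of which 104 were measured. Of these, 8 were higher with miR-34c, 7 were lower and 89 did not pass, so 14.4% passed, beside 15.7% of all genes tested. Without miR-34c replicate 2, and likewise without scramble replicate 3, 5 were higher. Between 3 and 4 were lower without each of the miR-34c arrays and without scramble replicate 1. With each array centred on its median, 13 were higher and 7 lower. The median log2 change over the 104 genes was -0.0067.

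The changes largest in size on the 9 lists were the rises of PNPT1, EIF2AK2 and ADAR, followed by the fall of CNOT6. Of 8 measured genes of double-stranded RNA binding and editing, 2 rose and 1 fell. EIF2AK2 encodes PKR, the kinase that double-stranded RNA activates and that TRBP and PACT bind. Its values were 0.32, 0.36 and 0.44 on the miR-34c arrays and -0.78, -0.66 and -0.78 on the scramble arrays, 2.17-fold higher (log2 change 1.12 ± 0.075, SE, limma adjusted p = 1.58e-05). ADAR, which converts adenosine to inosine in double-stranded RNA, was 1.52-fold higher (0.60 ± 0.083, SE, limma adjusted p = 0.00141), with all miR-34c arrays above all scramble arrays. ZFR, a zinc finger RNA-binding protein, fell by 0.28 (limma adjusted p = 0.0408), but passed in none of the 6 fits that left out 1 array. Of the 9 other settings, ZFR passed under 5.

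Of 13 measured genes of microRNA tailing and turnover 3 rose and 0 fell in limma, or 4 and 2 at an unadjusted p under 0.05. Of all genes tested, 7.67% rose and 8.01% fell, or 12.9% and 16.2% at the unadjusted threshold. Whether the list as a whole moved was not tested. PNPT1, a polynucleotide phosphorylase of the mitochondrion, was at -0.016, 0.21 and 0.45 with miR-34c and at -1.25, -0.98 and -1.12 with the scramble mimic. This was 2.51-fold higher, the largest change on the 9 lists (log2 change 1.33 ± 0.12, SE, limma adjusted p = 0.000133). ZC3H12A, the ribonuclease Regnase-1, was 1.37-fold higher (limma adjusted p = 0.00735). TENT4B, a poly(A) polymerase, was 1.35-fold higher (limma adjusted p = 0.0211), a call lost without miR-34c replicate 2 and without either of scramble replicates 2 and 3. The terminal uridylyltransferases TUT4 and TUT7, named for their role, stood at log2 changes of -0.16 and 0.032, short of the threshold.

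The promoter windows of the 2 genes on the lists that rose most are shown as well. In them capitals mark GAAANNGAAA or GAAANGAAA on either strand, repeats of the kind that interferon regulatory factors are known to bind. The 2 patterns can share letters. The EIF2AK2 window is chr2:37156931-37157230 and the PNPT1 window chr2:55693795-55694094, both on the minus strand of GRCh38.p14 and written in the direction of transcription, from RefSeq.
EIF2AK2: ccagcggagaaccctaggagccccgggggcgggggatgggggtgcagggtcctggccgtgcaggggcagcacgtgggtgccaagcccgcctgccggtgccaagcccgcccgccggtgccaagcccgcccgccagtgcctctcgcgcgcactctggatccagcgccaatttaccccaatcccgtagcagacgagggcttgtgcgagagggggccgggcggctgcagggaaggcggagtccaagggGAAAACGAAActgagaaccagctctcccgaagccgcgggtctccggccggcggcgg
PNPT1: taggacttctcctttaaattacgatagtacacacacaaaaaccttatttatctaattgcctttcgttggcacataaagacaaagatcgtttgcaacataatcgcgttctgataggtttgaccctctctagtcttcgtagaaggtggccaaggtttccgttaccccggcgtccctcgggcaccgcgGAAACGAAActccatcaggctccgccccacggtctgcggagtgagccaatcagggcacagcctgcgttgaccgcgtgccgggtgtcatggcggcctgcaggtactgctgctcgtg
Each window holds 1 match, at base 245 of EIF2AK2 and base 186 of PNPT1, counted from the 5′ end of the window. Of the first windows of 14209 tested genes 5.57% held such a repeat, and of the 9 first windows of the microRNA biogenesis and Argonaute genes 0 did. The repeat and the windows shown were chosen after the values were seen, so setting them beside these shares is no test. A match of letters does not show binding here either. The windows of ADAR and MOV10 held no such repeat either. The letters CCAAT, left in lower case here, had 2 matches in the EIF2AK2 window and 1 in the PNPT1 window. In the first windows of ADAR and MOV10 they had 2 and 0. Whether CCAAT goes with the direction of change was not tested.

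**Figure D3:**
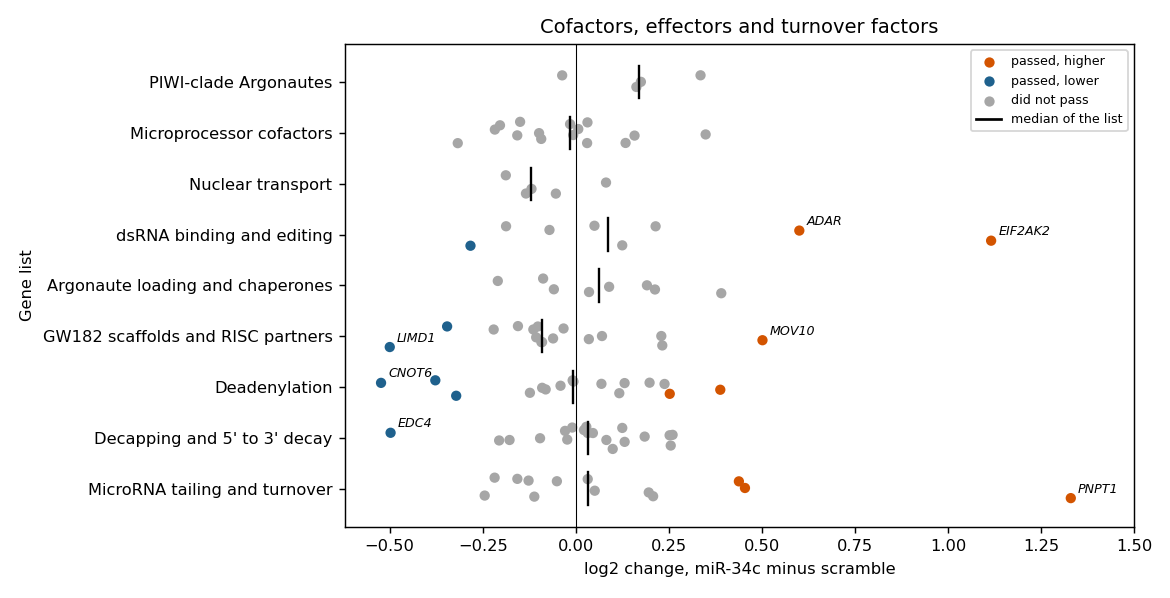
Log2 change (miR-34c minus scramble, horizontal axis) of each measured gene on the 9 lists (vertical axis, with random vertical spread), coloured where the limma adjusted p was under 0.05, and a black line at the median of each list. EIF2AK2 at 1.12 and PNPT1 at 1.33 stand far to the right, and the list medians lie between -0.12 and 0.17.

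Among 16 measured scaffolds and partners of the silencing complex 1 rose and 2 fell. MOV10, an RNA helicase that binds Argonaute, was 1.42-fold higher (0.50 ± 0.090, SE, limma adjusted p = 0.00534). LIMD1, an adaptor between Argonaute and the GW182 proteins, fell to 0.707 of the scramble level (limma adjusted p = 0.00624). Its values were -0.54, -0.54 and -0.59 with miR-34c and 0.10, -0.24 and -0.023 with the scramble mimic. ELAVL1, the RNA-binding protein HuR, fell to 0.787 of the scramble level (limma adjusted p = 0.0163), a call lost without either of miR-34c replicates 1 and 2 and without scramble replicate 1. The GW182 genes themselves, TNRC6A, TNRC6B and TNRC6C, named for their role, stood at log2 changes of -0.11, -0.22 and -0.093, short of the threshold.

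The deadenylases, which shorten the poly(A) tails of repressed messages, went both ways, with 2 of 16 measured genes higher and 3 lower. CNOT6, a catalytic subunit of CCR4-NOT, fell to 0.696 of the scramble level (limma adjusted p = 0.00448), and all its miR-34c arrays, from -0.99 to -0.77, lay below all its scramble arrays, from -0.38 to -0.32. PAN3, the partner that recruits the deadenylase PAN2, fell to 0.77 (limma adjusted p = 0.0172), and CNOT9, which binds GW182, fell to 0.80 (limma adjusted p = 0.0301). PAN2 itself, chosen after its value was seen, was 1.31-fold higher (limma adjusted p = 0.0448). TOB1, an adaptor of CCR4-NOT, was 1.19-fold higher (limma adjusted p = 0.0348). Of these calls, that of CNOT6 held when any 1 array was left out. PAN3 was lost without either of miR-34c replicates 1 and 3 and without scramble replicate 3. Among the fits that left out 1 array, CNOT9 passed only without scramble replicate 3, and PAN2 and TOB1 only without scramble replicate 2. With every array kept, PAN2 was also lost with a robust prior and with all probe sets tested. TOB1 was lost with the replicate number as a block.

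In decapping and 5′ to 3′ decay 1 of 19 genes passed. EDC4, the scaffold of the decapping complex, fell to 0.708 of the scramble level (limma adjusted p = 0.00559), with miR-34c arrays at -0.79, -0.65 and -0.85 and scramble arrays at -0.26, -0.17 and -0.36. The exonuclease XRN1 and the decapping enzyme DCP2, named for their role, stood at log2 changes of 0.19 and 0.25, short of the threshold. With each array centred on its median DCP2 passed (limma adjusted p = 0.0498), and 3 genes of the list passed as higher, against 2 after repeated quantile normalization.

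None of 15 measured cofactors of the Microprocessor passed in the fit as reported, nor any of 5 nuclear transport factors, 8 loading factors and chaperones or 4 PIWI-clade Argonautes of the germline. At an unadjusted limma p under 0.05, these numbered 3, 1, 1 and 1. Of all genes tested, 15.7% passed, and at the unadjusted threshold 16.2% were lower and 12.9% higher. Some genes of these lists passed under other settings, and they are named after their values were seen. The splicing factor SRSF3, on the Microprocessor list, passed as higher under 5 of the 15 (lowest limma adjusted p = 0.0177). The cochaperone FKBP4 passed as higher under 4 (0.0265), and PIWIL2 under 2 (0.0228), of which 1 was the fit with the replicate number as a block. The helicases DDX5 and DDX17, named for their role in the Microprocessor, had log2 changes of 0.13 and 0.16.

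**Figure D4:**
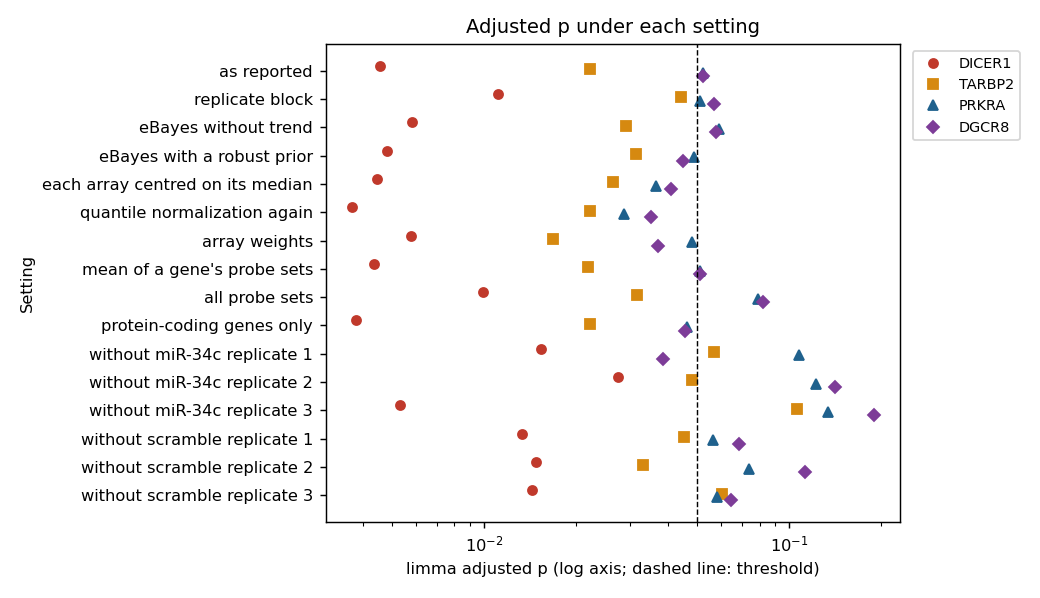
Limma adjusted p (horizontal log axis) of DICER1, TARBP2, PRKRA and DGCR8 in the fit as reported and under 15 other settings, with a dashed line at 0.05. DICER1 lies left of the line in every setting shown, TARBP2 crosses it without miR-34c replicates 1 and 3 and scramble replicate 3, and PRKRA and DGCR8 lie close to it in most.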

How the data were processed

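Total RNA was labelled as whole-transcript cDNA and hybridised to Affymetrix arrays, per the labels' protocols. The authors ran RMA in Affymetrix Expression Console, per the submitters' processing notes. The deposited log2 values lie around 0, so some reference was taken off each probe set. How this was done, and the genome build, are not given in the sources used here. It cancels in the difference between groups only if the same reference served all 6 arrays. For DROSHA, DGCR8 and AGO4 the middle values over the 6 arrays, from different groups, were equal in size and opposite in sign (0.016, 0.058 and 0.010). A median shared by both groups would give such values. All values of AGO1 and TARBP2 lay below 0, so a median of these 6 arrays was not the reference for every gene. What served the other genes was not tested. Of 28868 probe sets, 19309 had 1 gene symbol in GEO's platform annotation. For 685 genes with several probe sets the probe set of highest mean value was kept, which leaves 18376 genes. As the values are centred for each probe set, that mean does not show which probe set is brightest. No arrays held identical values. Limma (version 3.58.1, R 4.3.3) was fitted with group as sole term, eBayes with its trend option, Benjamini-Hochberg adjustment over all genes and a threshold of 0.05. The trend rests on each gene's mean of the centred values, which does not measure brightness. Without the trend, DICER1 and TARBP2 were again the members that passed. The fit was tested on simulated data. There it recovered 62.7% of genes changed 1.5-fold, 92.5% of those changed 2-fold and 98.5% of those changed 4-fold. It called 8 of 18176 unchanged genes. Changes smaller than 1.5-fold were not simulated. No set test was run.

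The members and lists were chosen with earlier results of these data known. Named are all 10 members, up to 4 genes of each list that passed with the smallest adjusted p, and the 3 genes most correlated with each member that passed. Others are marked. Of the 109 list genes, 104 were matched to a probe set with 1 symbol, and the others are not analysed here. Other settings tried were 9 changes of the fit, scaling or genes tested and leaving out each of the 6 arrays. Same-numbered arrays of the groups did not deviate together (correlations of 0.006, 0.111 and -0.096 over probe sets), so the numbers were not treated as pairs.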

Additional observations from a re-analysis of the deposited data

How the results depend on the processing

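DICER1 passed under all 15 other settings. TARBP2 passed under all 9 that kept every array, and its log2 change lay between -0.34 and -0.27 when 1 array was left out. PRKRA and DGCR8 passed with a robust prior (-0.32 and -0.35), with arrays centred on their medians (-0.31 and -0.33), after repeated quantile normalization (-0.30 and -0.34), with array weights (-0.27 and -0.33) and with protein-coding genes only (-0.32 and -0.35). Each of these gave 4 genes of the set as lower. Leaving out 1 array moved DGCR8 between -0.42 and -0.25 and PRKRA between -0.38 and -0.21, and gave 1 to 2 genes as lower. The AGO4 change turned to 0.012 after quantile normalization, 0.055 with array weights, and lay between -0.13 and 0.11 when 1 array was left out. The causes were not tested. Over all genes, leaving out 1 array gave 1655 to 2652 calls, 758 to 1373 of them lower. Of 2881 calls 51.1% were lower, but 40.7% without scramble replicate 2. The listed cofactors gave 13 rises with the arrays centred and with array weights, and 5 to 11 rises and 3 to 5 falls when 1 array was left out. With the replicate number as a block, DICER1 (-0.52, limma adjusted p = 0.0111) and TARBP2 (-0.31, limma adjusted p = 0.0442) passed, 2675 genes passed in all, and no gene of the set changed its call. Brightness over background is unknown, so low signal could not be set aside.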

Other observations

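The tested genes next to the 10 in the order of the RefSeq gene table were looked up after the values were seen. Of 16 such neighbours 4 fell, 2 rose and 10 did not pass in limma, beside 8.01% of all genes tested that passed as lower and 7.67% as higher. NPFF, which lies beside TARBP2 and encodes a neuropeptide precursor, fell by 0.78 ± 0.10 (SE) on the log2 scale, more than TARBP2. Its miR-34c arrays held 0.28, 0.38 and 0.34 and its scramble arrays 1.12, 1.08 and 1.13. On either side of DROSHA, CDH6, a cadherin, fell by 0.73 ± 0.10 and C5orf22 by 0.56 ± 0.093 (SE), while DROSHA did not pass. CHRAC1, a histone-fold protein beside AGO2, fell by 0.37 ± 0.082 (SE). TRMT2A, a tRNA methyltransferase beside DGCR8, rose by 0.26 ± 0.073 (SE), and POLR1C beside XPO5 rose as well. The limma adjusted p of these 6 genes lay between 0.000929 (NPFF) and 0.0376 (TRMT2A). The tested genes beside DICER1, GSC and DICER1-AS1, stood at log2 changes of 0.043 and -0.15, short of the threshold.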
